A study of Bos taurus with 10 samples.

Results

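HSP90 is an ATP-driven chaperone that works as a dimer on proteins that are already nearly folded, and a set of co-chaperones loads its clients, paces its ATP cycle and releases what it has held. The 10 genes described here are 3 HSP90 paralogues, HSP90AA1, HSP90AB1 and TRAP1, and 7 co-chaperones, STIP1, AHSA1, CDC37, FKBP4, PTGES3, CHORDC1 and UNC45A. They were taken by name from a table of 26804 genes, and all 10 were found, passed the filter on low values and were tested. They were measured in bovine (Bos taurus) oviductal organoids, three-dimensional cultures grown from the epithelium scraped from the oviducts of diestrus cows.

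Organoids of the thermoneutral group stayed at 37 °C, and those of the heat stress (HS) group spent the final day of culture at 42 °C, after all had been grown at 37 °C. There were 5 replicates per temperature, lettered A to E, and each was a pool of material from 2 animals. According to the study's methods the same oviducts were represented at both temperatures, so that letters were read as pairs. The limma p-values below come from a fit without that pairing, unless the replicate block is named. They measure the spread between pools. Breed and age of the animals were not given. A library is named by its temperature with its letter, as in 42C A. The study set aside 1 HS replicate, taken here to be 42C B, so that the comparison holds 5 libraries at 37 °C and 4 at 42 °C, and 42C B is given apart.

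HSP90 is abundant in unstressed cells, and its clients include many kinases and the steroid receptors through which estrogen and progesterone act on the oviduct. In the cytosol HSP90AB1 is the constitutive paralogue and HSP90AA1 the one that heat induces through the transcription factor HSF1, which is itself held by HSP90. TRAP1 is the paralogue of the mitochondrial matrix. STIP1 hands clients from HSP70 to HSP90, CDC37 brings kinases, AHSA1 speeds up the ATPase, PTGES3 (p23) holds the closed dimer, FKBP4 is an immunophilin of steroid receptor complexes, CHORDC1 is a CHORD domain partner, and UNC45A attends to myosin heads.

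Values are in TPM, a measure of transcripts that is corrected for length and sums to 1000000 in each library. Each is thus a share of its library and holds no read count. Differences are 42 °C minus 37 °C on the log2(TPM + 1) scale, from limma, with Benjamini-Hochberg adjusted p over the 12149 genes that reached 1 TPM in at least 4 of the 9 libraries. A call needed both an adjusted p under 0.05 and at least 1 log2 unit of difference. On these terms 1915 genes (15.8%) were called higher and 867 (7.14%) lower at 42 °C, and 68.8% of calls were higher. With median-ratio scaling between libraries the split was 921 higher to 1434 lower (39.1% higher), and with quantile normalization 981 to 1253 (43.9% higher). The median log2 difference of all tested genes was 0.30 as deposited and -0.01 after median-ratio scaling, and differences below are also read against that shift.

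The libraries carried the markers of an epithelium. All 6 epithelial markers were measured, with a summed level of 8937 to 10110 TPM at 37 °C, 6494 to 8931 at 42 °C and 3290 in 42C B. The list was split: KRT7, KRT8 and KRT18, which make up most of the sum, were lower at 42 °C (log2 differences -0.57, -0.59 and -0.76), and EPCAM, CDH1 and PAX8 were higher (0.66, 0.98 and 0.24), all at a limma adjusted p below 0.05. OVGP1, the oviduct's secretory glycoprotein, did not exceed 0.726 TPM in any library. The 4 ciliated cell markers in the table summed to 33.8 to 109.6 TPM at 37 °C and 21.7 to 37.5 at 42 °C. All 5 fibroblast and all 5 leukocyte markers were below 1 TPM in all 10 libraries, and 2 of the leukocyte markers were listed at 0 throughout. Of 3 endothelial markers 2 were below 1 TPM everywhere, and the list summed to 10.3 to 15.9 TPM at 37 °C and 8.26 to 9.02 at 42 °C. Of 3 smooth muscle markers 2 were likewise below 1 TPM, with sums of 3.22 to 10.02 at 37 °C and 0.953 to 2.92 at 42 °C. In these bulk libraries fewer cells of a type and less RNA per cell cannot be told apart, and the part of the marker shifts in the results was not tested. On the first principal component (58.9% of the variance) the 37 °C libraries lay between -49.5 and -43.5, 42C C, D and E between 51.2 and 55.9, 42C A at 2.17 and 42C B at 72.2. On the second (22.8%) 42C B lay at 78.1 and all other libraries between -32.8 and 15.8.

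Of the 10 genes, 5 were called higher at 42 °C, namely HSP90AA1, CHORDC1, FKBP4, AHSA1 and STIP1, and 0 were called lower, against a background of 15.8% and 7.14% of all tested genes. At an adjusted p below 0.05 whatever the fold, 8 of 10 were higher and 1, TRAP1, was lower, against 45.1% and 18.1% of all genes, and CDC37 did not pass. At an unadjusted p below 0.05 it was likewise 1, TRAP1, that was lower. The same 8 were higher and the same 1 was lower in every compared 42 °C library than in every 37 °C library, where 36.6% of all genes were higher and 12.3% lower without overlap. The median log2 difference of the 10 was 0.94, beside 0.30 for all genes. After median-ratio scaling 2 of the 10, HSP90AA1 and CHORDC1, were still called higher, and 6 were higher and 1 lower at an adjusted p below 0.05. Of all 12149 tested genes 921 were called higher with that scaling, and 3496 were higher and 3626 lower at that adjusted p.

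**Figure D1:**
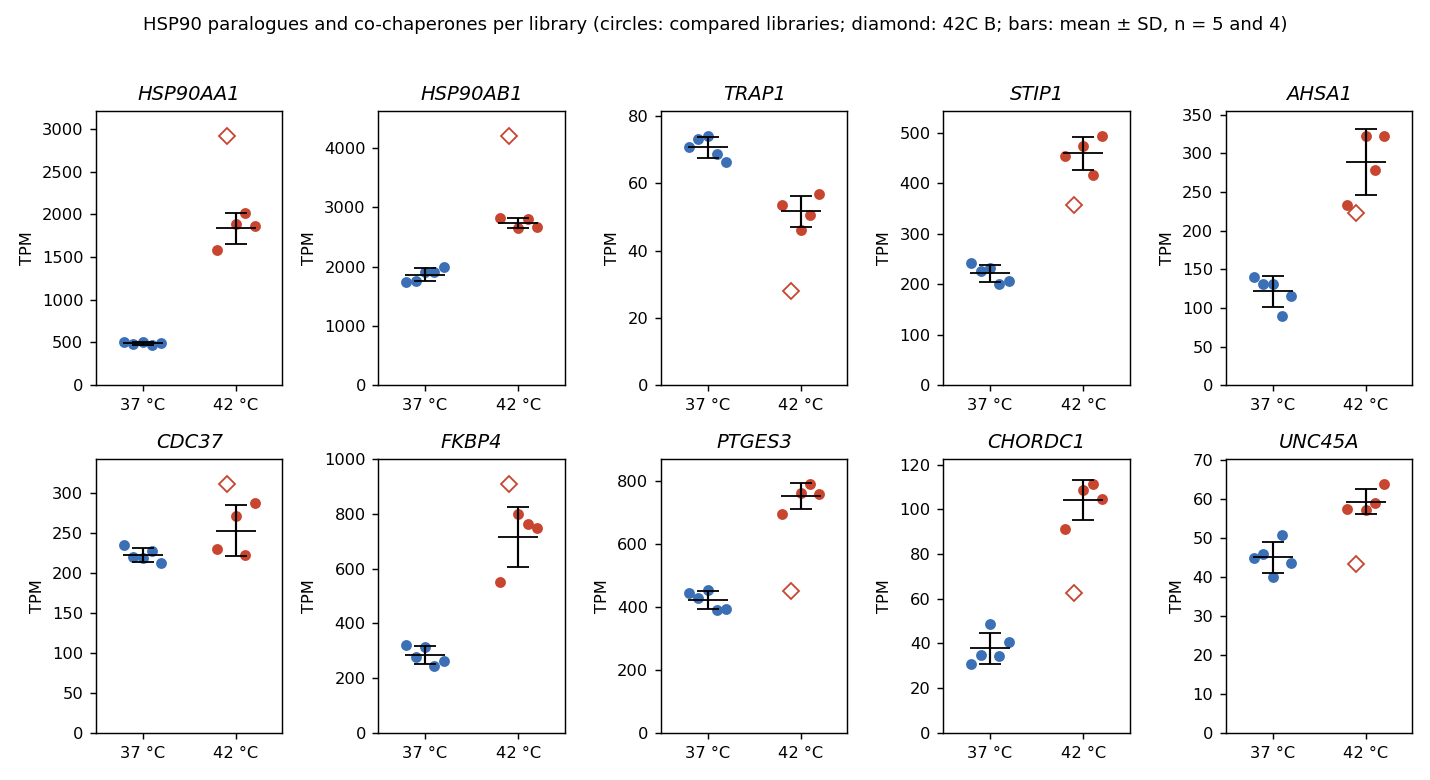
TPM of the 10 genes in each library, a panel per gene, with 37 °C in blue and 42 °C in red, filled circles for the 9 compared libraries, an open diamond for 42C B, and bars for the mean ± SD (n = 5 and 4). HSP90AA1 lies at 467 to 505 TPM at 37 °C and 1583 to 2017 at 42 °C, TRAP1 falls, the CDC37 groups overlap, and the diamond of PTGES3 lies within the 37 °C range.

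HSP90AA1 (ENSBTAG00000006270), the heat-inducible cytosolic paralogue, had the largest difference of the 10. It was at 505, 476, 503, 467 and 491 TPM in 37C A to E, and at 1583, 1892, 2017 and 1857 TPM in 42C A, C, D and E. The thermoneutral libraries were tightly grouped and all HS libraries lay more than 3-fold above the 37 °C library of their own letter, with same-letter ratios of 3.13 to 4.32. Its mean went from 488 ± 16.5 (SD, n = 5) to 1837 ± 183 TPM (SD, n = 4), a ratio of 3.76. The log2 difference was 1.90 (SE 0.092, 95% interval 1.70 to 2.11, limma adjusted p = 8.09e-07), which is 1.60 above the median of all genes.

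HSP90AB1 (ENSBTAG00000000778), the constitutive cytosolic paralogue, was the most abundant of the 10 at both temperatures and rose less. It was at 1744, 1758, 1914, 1915 and 1988 TPM in 37C A to E, and at 2816, 2646, 2798 and 2671 TPM in 42C A, C, D and E. Every HS library was above every thermoneutral one, and same-letter ratios were 1.34 to 1.61. The mean went from 1864 ± 108 to 2733 ± 86.5 TPM (SD, n = 5 and 4), with a log2 difference of 0.55 (95% interval 0.36 to 0.74, limma adjusted p = 0.00025), below the fold needed for a call. After median-ratio scaling the difference was 0.21 and no longer passed (limma adjusted p = 0.0768). HSP90AA1 and HSP90AB1 resemble each other in sequence, and reads that fit more than 1 gene were handled by the default of the authors' software, which the sources used here do not spell out, so that the division between these paralogues carries an uncertainty that replicates do not show.

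TRAP1 (ENSBTAG00000020109), the mitochondrial paralogue, fell. It was at 70.8, 73.3, 74.1, 68.8 and 66.3 TPM in 37C A to E, and at 53.6, 46.1, 50.5 and 56.9 TPM in 42C A, C, D and E. All 4 HS libraries were below all 5 thermoneutral ones, and the same-letter ratios were 0.622 to 0.858. The log2 difference was -0.44 (95% interval -0.65 to -0.24, limma adjusted p = 0.00178), from 70.7 ± 3.23 to 51.8 ± 4.6 TPM (SD, n = 5 and 4), and it was -0.78 after median-ratio scaling. In a newer assembly's annotation (ARS-UCD2.0) TRAP1 overlaps DNASE1, a secreted nuclease, whose mean was 1.38 TPM in the thermoneutral and 1.73 TPM in the HS libraries.

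**Figure D2:**
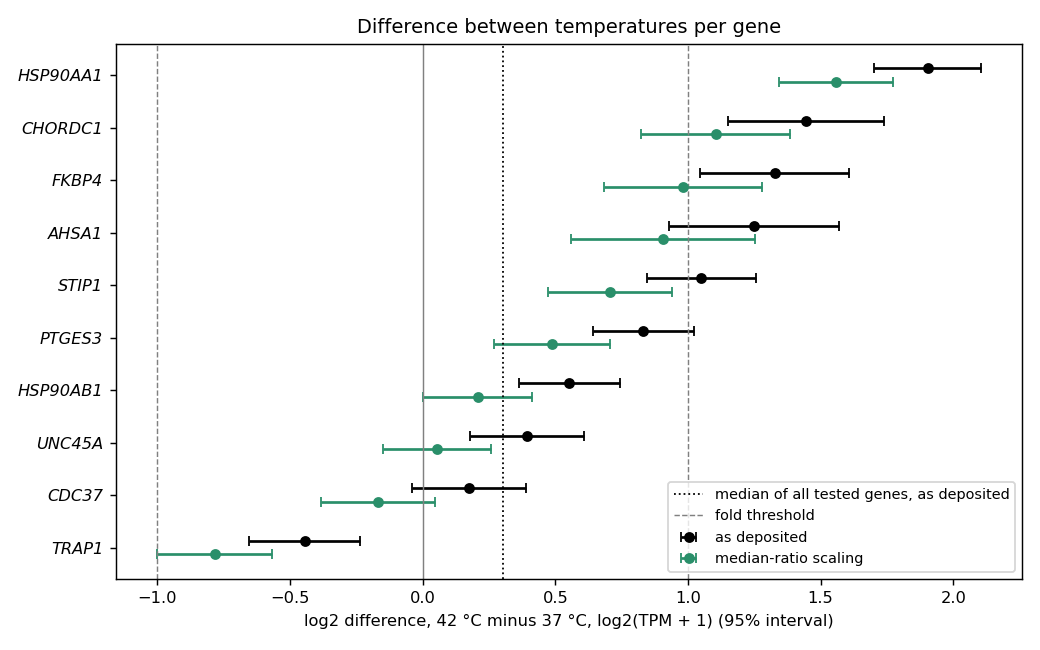
Log2 difference between 42 °C and 37 °C on the log2(TPM + 1) scale for the 10 genes, as points with 95% intervals, from TPM as deposited (black) and after median-ratio scaling (green), with the median of all tested genes dotted and the threshold for a call dashed. HSP90AA1 stands highest at 1.90 and TRAP1 lowest at -0.44, every gene is lower after median-ratio scaling, and CDC37 goes from 0.17 to -0.17.

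FKBP4 (ENSBTAG00000007605), the immunophilin also known as FKBP52, had the largest rise in TPM among the co-chaperones. It was at 320.1, 277, 313, 244 and 264 TPM in 37C A to E, and at 552, 799, 763 and 750.04 TPM in 42C A, C, D and E. Of the HS libraries 42C A was the lowest by some distance, and still lay above every thermoneutral library. The log2 difference was 1.33 (95% interval 1.04 to 1.61, limma adjusted p = 2.51e-05), from 284 ± 32.7 to 716 ± 111 TPM (SD, n = 5 and 4). It was 0.98 after median-ratio scaling, just short of the fold for a call, with an adjusted p of 0.000175 from limma.

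CHORDC1 (ENSBTAG00000013615), whose CHORD domains bind HSP90, was the least abundant of the 10 at 37 °C and had the largest log2 difference of the co-chaperones. It was at 31.0, 34.7, 48.7, 34.6 and 40.7 TPM in 37C A to E, and at 91.2, 108.8, 111 and 104.6 TPM in 42C A, C, D and E. The groups were far apart, and same-letter ratios were 2.23 to 3.22. On the log2 scale it rose by 1.44 (95% interval 1.15 to 1.74, limma adjusted p = 2.15e-05), from 37.9 ± 6.95 to 104.0 ± 9.02 TPM (SD, n = 5 and 4). It was 1.1 after median-ratio scaling and kept its call.

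AHSA1 (ENSBTAG00000020477), the activator of the HSP90 ATPase, was at 139.9, 131, 130.4, 89.3 and 116 TPM in 37C A to E, and at 233, 322, 278 and 323 TPM in 42C A, C, D and E. The groups did not overlap, and same-letter ratios ran from 1.67 in A to 3.11 in D, the letter with the lowest thermoneutral level. On the log2 scale it rose by 1.25 (95% interval 0.93 to 1.57, limma adjusted p = 5.51e-05), from 121 ± 19.9 to 289 ± 42.5 TPM (SD, n = 5 and 4). After median-ratio scaling it was 0.91, below the fold for a call (limma adjusted p = 0.000669).

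STIP1 (ENSBTAG00000015663), the adaptor between HSP70 and HSP90, was at 242, 226, 232, 200.1 and 206 TPM in 37C A to E, and at 453, 473, 416 and 494 TPM in 42C A, C, D and E. Groups did not overlap, and the HS libraries were 1.87 to 2.40 times the thermoneutral library of their letter. The log2 difference was 1.05 (95% interval 0.85 to 1.26, limma adjusted p = 1.85e-05), close to the threshold for a call, from 221 ± 17.7 to 459 ± 32.9 TPM (SD, n = 5 and 4). It fell below that fold, to 0.98 with all 10 libraries (limma adjusted p = 0.000138) and to 0.71 after median-ratio scaling (limma adjusted p = 0.000288). STIP1 overlaps an uncharacterised locus, LOC132344206, in ARS-UCD2.0, and the strand setting was the software's default, not spelled out in the sources used here.

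PTGES3 (ENSBTAG00000017967), known as p23, was at 445, 427, 453, 389.5 and 394 TPM in 37C A to E, and at 694, 760.3, 791 and 759 TPM in 42C A, C, D and E. It rose in every letter compared, by ratios of 1.56 to 2.03, and the groups were well apart. On the log2 scale it rose by 0.83 (95% interval 0.64 to 1.02, limma adjusted p = 3.49e-05), from 422 ± 29.0 to 751 ± 41.0 TPM (SD, n = 5 and 4), below the fold for a call. It was 0.49 after median-ratio scaling.

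UNC45A (ENSBTAG00000018639), the myosin chaperone, was at 44.9, 45.7, 40.0, 50.7 and 43.4 TPM in 37C A to E, and at 57.3, 57.0, 58.8 and 63.8 TPM in 42C A, C, D and E. The compared HS libraries were all higher, but by little, with same-letter ratios of 1.16 to 1.47. The log2 difference of 0.39 (95% interval 0.18 to 0.61, limma adjusted p = 0.00468) was 0.09 above the median of all genes. It did not pass after median-ratio scaling (0.05, limma adjusted p = 0.634), with quantile normalization (0.16, adjusted p = 0.161) or with all 10 libraries (0.30, adjusted p = 0.0922).

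CDC37 (ENSBTAG00000011699), the kinase-specific co-chaperone, was the only gene of the 10 that did not pass at any fold. It was at 234, 219.6, 219, 227 and 213 TPM in 37C A to E, and at 229.9, 271, 222 and 288 TPM in 42C A, C, D and E. 42C A and 42C D lay within the thermoneutral range and 42C C and 42C E above it, so that it was higher in 2 of 4 letters. The log2 difference was 0.17 (95% interval -0.04 to 0.39, limma adjusted p = 0.138) as deposited and -0.17 (limma adjusted p = 0.157) after median-ratio scaling. The upper end of its interval, 0.39, was below the lower ends for STIP1 (0.85) and AHSA1 (0.93).

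The cytosolic pair was then summed, as both proteins serve the same co-chaperones. HSP90AA1 and HSP90AB1 together were at 2249, 2234, 2417, 2382 and 2479 TPM in 37C A to E, and at 4399, 4538, 4815 and 4529 TPM in 42C A, C, D and E. The sum thus went from 2352 ± 107 to 4570.01 ± 175 TPM (SD, n = 5 and 4), a ratio of 1.94, with no overlap. The difference was 2218 TPM (95% interval 2016 to 2435 from the exact permutation test inverted, two-sided exact permutation p = 0.0159, the smallest that 5 against 4 libraries allow). After median-ratio scaling it was 1314 TPM (exact permutation p = 0.0159). With the letters as pairs it was 2188 TPM, where an exact sign-flip test of 4 pairs cannot go below its p of 0.125.

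HSP90AA1 and HSP90AB1 took different parts in that rise. The share of HSP90AA1 in the sum was 22.5%, 21.3%, 20.8%, 19.6% and 19.8% in 37C A to E, and 36.0%, 41.7%, 41.9% and 41.0% in 42C A, C, D and E. This is 20.8% ± 1.17 against 40.1% ± 2.80 (SD, n = 5 and 4), a difference of 19.3 percentage points (95% interval 15.2 to 22.1, two-sided exact permutation p = 0.0159, again the smallest possible). Between pairs of letters it was 19.5 points, with a sign-flip p of 0.125, the smallest that exact test allows. Because the share is a ratio within a library, scaling between libraries does not enter it. HSP90AB1 went from 3.82 ± 0.266 to 1.5 ± 0.187 transcripts per transcript of HSP90AA1 (SD, n = 5 and 4), and remained the more abundant paralogue in all 10 libraries.

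**Figure D3:**
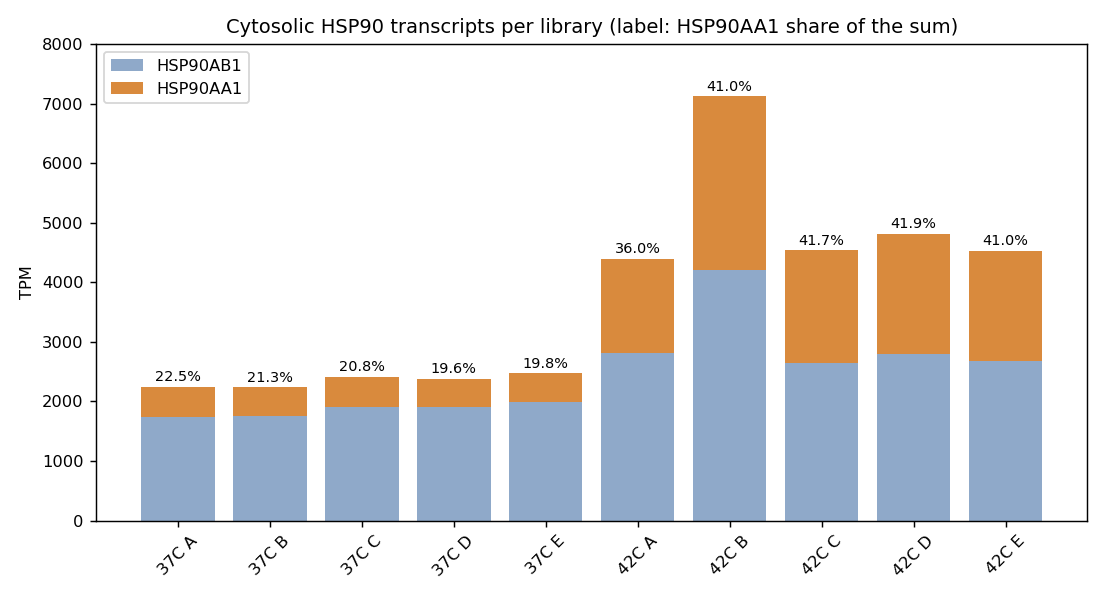
Stacked bars of HSP90AB1 (blue) and HSP90AA1 (orange) in TPM for each of the 10 libraries, with the share of HSP90AA1 in percent above each bar. The sum is 2234 to 2479 TPM at 37 °C, 4399 to 4815 in the 4 compared HS libraries and 7123 in 42C B, and the share of HSP90AA1 goes from 19.6 to 22.5% at 37 °C to 36.0 to 41.9% at 42 °C.

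As a sum the co-chaperones were higher at 42 °C by the same ratio as the cytosolic pair, 1.94, though not gene by gene. The 7 summed to 1353 ± 97.1 TPM at 37 °C and 2631 ± 224 TPM at 42 °C (SD, n = 5 and 4). Per TPM of HSP90AA1 and HSP90AB1 this was 0.648, 0.609, 0.594, 0.519 and 0.515 in 37C A to E, and 0.525, 0.615, 0.549 and 0.614 in 42C A, C, D and E. The groups lay across each other, at 0.577 ± 0.0584 and 0.576 ± 0.0458 (SD, n = 5 and 4). The difference of -0.0012 had a 95% interval of -0.0915 to 0.0978 (two-sided exact permutation p = 0.968). The sign of this difference turned with the letters as pairs (0.0068, exact sign-flip p = 0.875), and with all 10 libraries it was -0.0502 (exact permutation p = 0.524).

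The makeup of the co-chaperones relative to HSP90 differed between temperatures. Per 100 TPM of cytosolic HSP90, CDC37 went from 8.59 to 10.4 at 37 °C down to 4.62 to 6.36 at 42 °C, with means of 9.49 ± 0.707 and 5.54 ± 0.775 (SD, n = 5 and 4). UNC45A likewise went from 1.92 ± 0.202 to 1.30 ± 0.0817, and CHORDC1 from 1.61 ± 0.248 to 2.27 ± 0.14, all without overlap between the groups. FKBP4 was at 12.1 ± 1.66 and 15.6 ± 2.18, AHSA1 at 5.18 ± 0.987 and 6.32 ± 0.926, STIP1 at 9.44 ± 1.07 and 10.1 ± 0.981, and PTGES3 at 17.98 ± 1.74 and 16.4 ± 0.464, and for these 4 the groups overlapped. These ratios were not tested and are given as values. Together the 10 genes held 0.378% ± 0.0106 of all TPM at 37 °C and 0.725% ± 0.0332 at 42 °C (SD, n = 5 and 4).

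**Figure D4:**
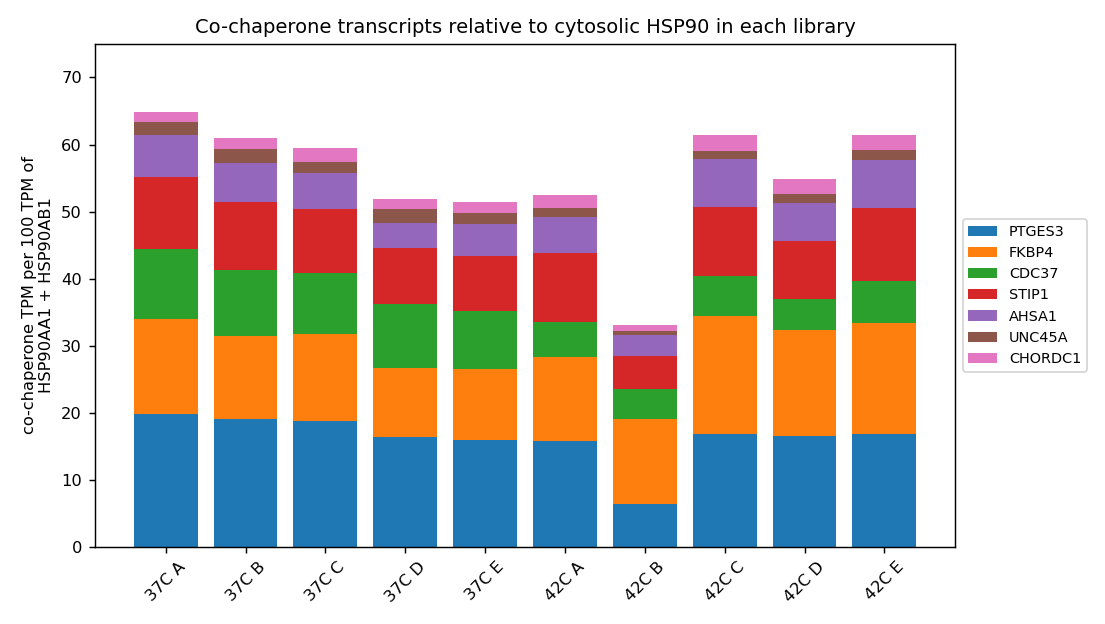
TPM of the 7 co-chaperones per 100 TPM of HSP90AA1 and HSP90AB1 in each of the 10 libraries, stacked by gene. The stacks of 37 °C and of 42C A, C, D and E reach similar heights, with CDC37 narrower and FKBP4 mostly wider at 42 °C, and the stack of 42C B is the lowest.

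The order of the levels, in TPM and thus per length, changed below the paralogues. At 37 °C it ran HSP90AB1, HSP90AA1, PTGES3, FKBP4, CDC37, STIP1, AHSA1, TRAP1, UNC45A and CHORDC1. CDC37 and STIP1 could not be ordered, since CDC37 was the higher in 2 of 5 libraries, and UNC45A was above CHORDC1 in 4 of 5. At 42 °C it ran HSP90AB1, HSP90AA1, PTGES3, FKBP4, STIP1, AHSA1, CDC37, CHORDC1, UNC45A and TRAP1, where PTGES3 was above FKBP4 in 3 of 4 libraries and the ranges of AHSA1 and CDC37 overlapped. Among all genes of the table HSP90AB1 ranked 91st by mean at 37 °C and 33rd at 42 °C, and HSP90AA1 304th and 78th. TRAP1 went from 2210th to 3358th.

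The library 42C B, left out above, held the highest HSP90AA1 (2919 TPM) and HSP90AB1 (4204 TPM) of all, and also the highest CDC37 (312 TPM) and FKBP4 (911 TPM). The other 6 genes were below the remaining HS libraries there, with TRAP1 at 28.1, STIP1 at 357, AHSA1 at 222, PTGES3 at 449, CHORDC1 at 62.7 and UNC45A at 43.2 TPM. PTGES3 and UNC45A thus lay within the thermoneutral range. The share of HSP90AA1 in the cytosolic pair was 41.0%, within the range of the other HS libraries, while co-chaperones per cytosolic HSP90 stood at 0.331, below all other libraries. Beside these values, the sum of the epithelial markers, most of it keratins, was lowest in 42C B, and what part this had was not tested. Among the 4 compared HS libraries 42C A held the lowest level of 5 of the 10 genes and the highest of 1, HSP90AB1.

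The wider HSP90 machinery, a list of 42 symbols chosen with earlier results of these data known, had 38 in the table and 36 tested. Of these 36, 7 were called higher and 1 lower, against 15.8% and 7.14% of all genes, and at an adjusted p below 0.05 they were 23 higher, 2 lower and 11 that did not pass, against 45.1% and 18.1%. The median log2 difference was 0.64, beside 0.30 for all genes. After median-ratio scaling 3 were called higher, AHSA2, TTI1 and SGTB, against 921 of all 12149 genes. At an adjusted p below 0.05 there were then 17 higher and 7 lower, against 3496 and 3626 of all genes. Quantile normalization gave 4 lower, against 3130 of all genes. SGTB, which passed the filter on low values only through HS libraries, is in these counts of higher genes and supports none of them. The endoplasmic reticulum paralogue HSP90B1 (GRP94) was at 641 to 773 TPM at 37 °C and 1156 to 1471 at 42 °C, a log2 difference of 0.88 (95% interval 0.66 to 1.1, limma adjusted p = 5.08e-05), and it was at 524 TPM in 42C B, below all other libraries.

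AHSA2, a relative of AHSA1, had the largest difference of that list. It was at 13.2, 11.5, 12.8, 11.1 and 11.3 TPM in 37C A to E, and at 44.3, 68.4, 90.8 and 96.6 TPM in 42C A, C, D and E. Its log2 difference was 2.49 (95% interval 2.05 to 2.93, limma adjusted p = 1.24e-05), beside 1.25 for AHSA1, and AHSA1 remained the more abundant in all libraries. The cyclophilin PPID, an immunophilin like FKBP4, went from 112 ± 4.22 to 256 ± 33.3 TPM (SD, n = 5 and 4; log2 difference 1.18, limma adjusted p = 1.55e-05), and at 0.84 lost its call after median-ratio scaling. Its fellow FKBP5, by contrast, was at 103 ± 12.5 and 105 ± 17.5 TPM and did not pass (0.02, limma adjusted p = 0.888), and PPP5C, the phosphatase with the same kind of repeat, was lower without a call (-0.38, limma adjusted p = 0.0391) and no longer passed when any single 37 °C library, 42C C or 42C D was left out. FKBP5 and PPP5C were picked out after their values were seen.

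Other called genes of the machinery were spread over its classes. CACYBP, a CS domain protein, rose from 142 ± 19.3 to 329 ± 56.3 TPM and TTI1, a subunit of the TTT complex that serves kinases of the mTOR and ATM family, from 6.98 ± 0.543 to 19.5 ± 4.28 TPM (SD, n = 5 and 4; log2 differences 1.2 and 1.33). CACYBP was at 0.85 after median-ratio scaling and TTI1 at 0.97 with quantile normalization, both below the fold for a call. SGTB was listed at 0 to 0.231 TPM at 37 °C and 1.19 to 2.46 TPM at 42 °C, so that its difference of 1.26 rests on values near the pseudocount (2.999 with a pseudocount of 0.1, 0.39 with 5). It passed the filter on low values only through the 4 HS libraries in which it was high, and was not tested when any of them was left out. It is therefore no support for the count of 7, nor for any other count of higher genes in this list. TTC4 and NUDCD3, outside the naming rule, were just past the fold, both at 1.02. The gene called lower was PIH1D1, a subunit of the R2TP complex that works with HSP90, which fell in every HS library, from 55.4 ± 3.68 to 23.4 ± 5.14 TPM (SD, n = 5 and 4; log2 difference -1.23, limma adjusted p = 4.67e-05). The R2TP and TTT class had 1 of 7 called higher and 1 lower (15.8% and 7.14% of all genes), with a median of 0.22. FLCN, FNIP1, FNIP2 and TSC1, outside the naming rule and listed together as a class, were all 4 higher at an adjusted p below 0.05 without a call, with a median of 0.87. Of all genes 45.1% were higher on those terms.

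**Figure D5:**
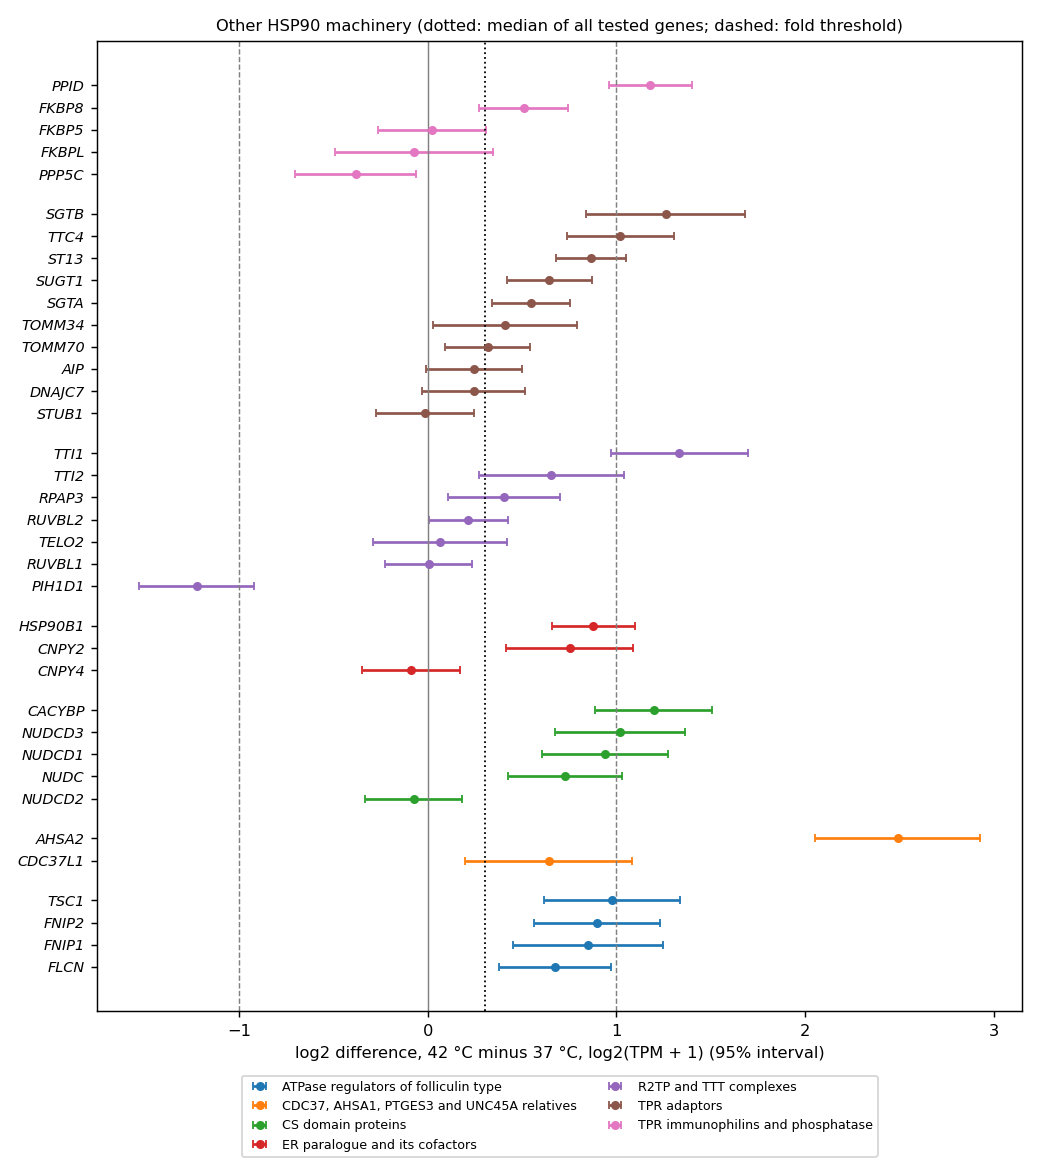
Log2 difference between 42 °C and 37 °C on the log2(TPM + 1) scale with 95% intervals for the 36 tested genes of the wider HSP90 machinery, coloured and grouped by class, with the median of all tested genes dotted and the threshold for a call dashed. AHSA2 stands highest at 2.49 and PIH1D1 lowest at -1.23, and 23 of 36 passed as higher at an adjusted p below 0.05, against 17 of 36 after median-ratio scaling. Of all 12149 tested genes 5477 passed as higher, and 3496 after that scaling. Both counts of the 36 include SGTB, which passed the filter on low values only through HS libraries.

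Textbook clients of HSP90 were listed as 43 symbols, all in the table, of which 41 were tested. At the level of transcripts 6 were called higher and 3 lower, against 15.8% and 7.14% of all genes, and at an adjusted p below 0.05 they were 25 higher and 5 lower, against 45.1% and 18.1%, with a median log2 difference of 0.60. Median-ratio scaling gave 18 higher and 9 lower, against 3496 and 3626 of all 12149 genes. Quantile normalization gave 8 lower, against 3130 of all genes. The called kinases were CDK6 of the cell cycle (5.68 ± 0.752 to 20.03 ± 5.61 TPM, log2 difference 1.61), the insulin receptor INSR (5.59 ± 2.34 to 17.7 ± 0.612 TPM, 1.57), PDPK1, which activates AKT (9.33 ± 2.97 to 28.5 ± 3.17 TPM, 1.55), SRC (26.9 ± 3.11 to 79.2 ± 17.4 TPM, 1.5) and EIF2AK2, the kinase that senses double-stranded RNA (14.2 ± 2.61 to 37.5 ± 3.14 TPM, 1.35), all as mean ± SD with n = 5 and 4. WEE1, outside the naming rule, completed the 6 at 1.26. NOS2, the inducible nitric oxide synthase, fell from 4.18 to 8.87 TPM at 37 °C to 0.0487 to 1.02 at 42 °C (log2 difference -2.35, limma adjusted p = 4.02e-05). It passed the filter on low values through the 37 °C group, and its difference depends on the pseudocount (-3.92 with 0.1, -1.04 with 5). NOS2 is therefore no support for the count of 3 called lower, which was 2 with a filter on a mean of 5 TPM. Neither NOS2 nor PGR, the progesterone receptor, supports the counts of lower clients at an adjusted p below 0.05. PGR had means of 1.9 TPM at 37 °C and 0.934 at 42 °C, so that the 42 °C libraries alone could not carry it past the filter. With the filter on a mean of 5 TPM 3 clients were lower at an adjusted p below 0.05. The other genes called lower, the mitotic kinases PLK1 (-1.30) and AURKB (-1.01), were also outside the rule. Without 42C A 10 clients were called higher, and without 42C C 1 was called lower.

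Among clients that are receptors for steroids and other ligands, 0 of the 5 tested were called by limma, against 15.8% of all genes higher and 7.14% lower. PGR, the progesterone receptor, was lower at an adjusted p below 0.05, with means under 5 TPM, and ESR1, the estrogen receptor, passed at an unadjusted p below 0.05 alone. The receptor class had a median of 0.17, the 26 cytosolic kinases had 0.69 and the 5 receptor kinases 0.87, and these differences between classes were not tested. HSF1, the heat shock factor that HSP90 binds, was picked out after its values were seen. Its mean was 62.3 ± 4.64 TPM in the thermoneutral and 59.995 ± 2.85 TPM in the HS libraries (SD, n = 5 and 4; log2 difference -0.05, limma adjusted p = 0.654), while after median-ratio scaling it passed as lower (-0.39, adjusted p = 0.00599) and also with quantile normalization (-0.26, adjusted p = 0.0329).

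The profile of HSP90AA1 over the 10 libraries was set against 9868 genes with a mean of at least 5 TPM, by the root mean square difference of log2(TPM + 1) from the 37 °C mean. Most like it were KLHL25, an adaptor of a ubiquitin ligase (0.119), USPL1, a SUMO protease (0.174), CCNT1, the cyclin of the elongation factor P-TEFb (0.223), the zinc finger gene ZNF16 (0.243) and UBN1, a histone chaperone subunit (0.245). As these genes were picked by likeness over all 10 libraries, their rise at 42 °C and peak in 42C B follow from the choice. Their levels were far lower than those of HSP90AA1 (KLHL25 at 4.05 TPM at 37 °C, 17.9 at 42 °C and 29.7 in 42C B). KLHL25, USPL1, CCNT1 and ZNF16 had means under 5 TPM at 37 °C (4.05, 2.67, 2.84 and 4.77). They reached the required mean only through the 42 °C libraries. Of the other genes of the set FKBP4 stood nearest, in place 204 (0.472), followed by CHORDC1 in place 645 (0.670) and AHSA1 in place 728 (0.696). HSP90AB1 was in place 1971 and TRAP1 in place 7980.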

How the data were processed

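RNA of 10 libraries of oviductal organoids was sequenced in bulk. The authors deposited TPM per gene. Per the study's methods, reads were trimmed on quality and mapped with CLC Genomics Workbench to build ARS-UCD1.2. Bowtie2 2.2.2, DESeq2 and bcl2fastq stand in the submitters' processing notes too, without their roles. All 10 columns were matched to samples by title. Each sums to 1000000, so that read counts per gene cannot be recovered from them and low values carry an unknown counting error. The study reports numbers of reads, which were not used here.

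42C B was left out, taken as the replicate that the study set aside since it is absent from the study's later clustering plot. The study's text does not name that replicate, and the plot's caption gives the range A_42 to D_42. Log2(TPM + 1) values of 9 libraries were tested with limma 3.58.1 in R 4.3.3 (lmFit, eBayes with trend, two-sided, letters not paired). This took the place of the study's count model, since the values are not counts. The scale understates changes of low genes. Sums and ratios were tested by exact permutation of libraries in Python 3.11.15 with scipy 1.17.1. The procedure was tested on simulated data.

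Members and lists were chosen with earlier results of these data known. Named were all 10 members, HSP90B1, up to 6 called genes a list by size of difference, and the 5 genes most like HSP90AA1. Some results for listed clients are not reported here. Those named outside the rule are marked, and list classes and marker lists are given by counts and ranges. Names and overlaps came from RefSeq's ARS-UCD2.0 table, in which all 10 members were found. No sequences or coordinates were used here.

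Letters were checked as pairs: deviations from the group means correlated at 0.171 (A), 0.343 (C), 0.18 (D) and 0.214 (E) between same-letter libraries, each above the highest value with another letter (0.126). Alternatives were the pseudocount (0.1 and 5), the filter (none, or a mean of 5 TPM), median-ratio scaling, quantile normalization, eBayes without trend, all 10 libraries, the replicate block, and leaving out each library.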

Additional observations from a re-analysis of the deposited data

Results flagged for a closer look

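The share of HSP90AA1 in the cytosolic pair at 42 °C was 36.0% in 42C A, apart from the 41.0 to 41.9% of the other 3 HS libraries. Of 26 groups looked at for a library far from the rest it was the 1 that stood out, and chance alone gives about 1 in 20. The library 42C B, in no comparison, exceeded every 37 °C library in 7 of the 10 genes: HSP90AA1 at 2919 TPM, HSP90AB1 at 4204, FKBP4 at 911, STIP1 at 357, CDC37 at 312, AHSA1 at 222 and CHORDC1 at 62.7.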

How the results depend on the processing

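Of 712 recomputed values of 41 results, 663 changed little: single values kept their direction and side of the threshold, and counts stayed near their main value, though some genes crossed the threshold. With a pseudocount of 5, 884 genes were called higher and 487 lower, and 4 of the wider machinery higher. With a pseudocount of 0.1, 10 clients were higher. Median-ratio scaling gave 921 higher and 1434 lower genes, 2 higher members, 3 higher genes of the wider machinery (SGTB among them) and -0.17 for CDC37, and quantile normalization 981 higher genes. Leaving out each library in turn gave 6 to 10 higher and 1 to 3 lower clients, with 10 without 42C A and 1 without 42C C. The count of 2 lower machinery genes at an adjusted p below 0.05 became 1 without any single 37 °C library, 42C C or 42C D, as PPP5C no longer passed, and 7 with median-ratio scaling. At that adjusted p 3626 of all 12149 genes were lower with that scaling. Co-chaperones per cytosolic HSP90 differed by -0.0167 to 0.0166 over these fits and by -0.0502 with all 10 libraries. With the replicate block the differences were 2188 TPM for the cytosolic sum, 19.5 points for the HSP90AA1 share and 0.0068 for that ratio, and 1848 higher and 869 lower genes were called. All 10 members kept their calls under the block and in every leave-one-out fit. Adjusted p from limma was larger under the block, at 0.000327 for HSP90AA1, 0.0168 for TRAP1 and 0.0204 for UNC45A. The cause of these shifts was not tested. TPM keeps no read counts, which limits what can be said of low genes such as SGTB.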
